A study of Mus musculus with 2 samples.

Results

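Histone genes and the genes of replacement histone variants were described in 2 mouse medulloblastoma libraries. Members were the gene records whose symbol begins with Hist1h, Hist2h, Hist3h or Hist4h, the replication-dependent genes, together with 8 named replacement variant genes: H2afx, H2afz, H2afv, H2afy, H2afy2, H3f3a, H3f3b and H1f0. They came to 75 genes in 81 records, of 23284 genes in 23746 records in all. Of these, 67 genes in 73 records were replication-dependent, and 6 of those genes were listed at 2 positions each. The 67 were taken by symbol and include Hist3h2bb-ps, annotated as a processed pseudogene.

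Both tumours arose in mice carrying CAG-CreER, a tamoxifen-activated Cre recombinase driven by the broadly active CAG promoter, and Rosa26-SmoM2, an activated form of Smoothened that switches on Hedgehog signalling. Both received tamoxifen 10 times, on alternate days. One tumour was Brg1+/+, with wild-type Brg1, and is called the control below; the other was Brg1F/F, with both alleles open to Cre, and is called the knockout. RNA was taken from dissected tumour tissue, so any cell type in the dissected tissue contributed. With 1 library per genotype there was no replicate error and no test, the differences below compare 2 libraries, and the sources used here do not give the animals' ages or number.

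Replication-dependent histone genes supply the core histones H2A, H2B, H3 and H4 and linker histone H1 when DNA is copied. Most lie in clusters, lack introns, and give mRNAs that end after a conserved stem-loop in place of a poly(A) tail. Replacement variants are made outside S phase as well, usually from spliced, polyadenylated mRNAs, and are exchanged into chromatin without DNA synthesis. H3.3 (H3f3a and H3f3b) marks active and turned-over chromatin, H2A.Z (H2afz and H2afv) lies at promoters and enhancers, macroH2A (H2afy and H2afy2) at repressed chromatin, H2A.X (H2afx) is phosphorylated around DNA breaks, and H1.0 (H1f0) is a linker histone of differentiated cells. Brg1, encoded by Smarca4, is an ATPase of the SWI/SNF remodelling complex, which moves nucleosomes built from these proteins.

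The 3′ stem-loop is shown because it is typical of replication-dependent histone mRNAs, with its paired arms in capitals and its loop in lower case. The sequences are from GENCODE M21 transcripts, read on the sense strand.
Hist1h1c, Hist3h2a, Hist3h2ba, Hist1h2ac and Hist2h3c1: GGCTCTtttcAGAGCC
Hist1h4d and Hist1h4h: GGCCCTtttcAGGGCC
Hist1h4i: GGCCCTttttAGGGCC
H2afx: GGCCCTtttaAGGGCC
The histone stem-loop motif, 16 bases long, was found in transcripts of 47 member genes and in 0.107% of the 55341 genes searched. Of the 47, 46 were replication-dependent and the other was H2afx. For the other 21 replication-dependent genes, Hist1h2bc and Hist2h2be among them, it was not found in an annotated transcript. The first form above was shared by 26 genes. A polyadenylation signal, AATAAA or ATTAAA within the last 50 bases of an annotated transcript, was found for all 8 variant genes and for 16 replication-dependent genes. For H2afy it was found only in a non-coding transcript. In Hist1h1c, Hist3h2a and H2afx the annotated transcript ran on for 840, 1643 and 822 bases after the stem-loop, to an end with a poly(A) signal, and the stem-loop lay inside it.

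Promoters of 4 variant genes and of 2 replication-dependent genes that differed in opposite directions are shown over the 120 bases before the start, from RefSeq on GRCm38.p6, on the gene's strand. Capitals mark CCAAT, ATTTGCAT and TATAAA, each in either orientation.
H2afz, chr3:137864367-137864486, plus strand: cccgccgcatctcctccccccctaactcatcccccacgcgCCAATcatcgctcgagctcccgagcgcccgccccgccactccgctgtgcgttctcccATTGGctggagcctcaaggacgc
H2afv, chr11:6444444-6444563, minus strand: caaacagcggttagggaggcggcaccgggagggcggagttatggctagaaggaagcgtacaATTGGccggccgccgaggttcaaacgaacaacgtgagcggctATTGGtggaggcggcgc
H3f3a, chr1:180813606-180813725, minus strand: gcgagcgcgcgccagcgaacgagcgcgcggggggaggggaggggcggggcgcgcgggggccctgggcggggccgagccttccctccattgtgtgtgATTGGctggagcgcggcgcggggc
H3f3b, chr11:116024505-116024624, minus strand: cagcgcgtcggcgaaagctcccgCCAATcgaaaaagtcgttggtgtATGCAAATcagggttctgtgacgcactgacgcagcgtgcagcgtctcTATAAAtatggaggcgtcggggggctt
Hist1h1c, chr13:23738687-23738806, plus strand: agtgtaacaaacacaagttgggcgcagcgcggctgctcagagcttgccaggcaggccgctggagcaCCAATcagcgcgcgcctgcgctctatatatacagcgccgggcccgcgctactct
Hist1h4i, chr13:22041363-22041482, minus strand: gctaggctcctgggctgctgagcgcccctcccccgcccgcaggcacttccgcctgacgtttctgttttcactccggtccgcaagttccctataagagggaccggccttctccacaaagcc
In this 120-base stretch H2afz and H2afv each held 2 CCAAT pentamers, the other variants shown held 1 each, and Hist1h4i held none. Promoters were also read over 300 bases, 250 before and 50 after the start, on either strand. CCAAT was present in 85.5% of 62 replication-dependent promoters and in 5 of 7 variant promoters, against 37.4% of all 32851 promoters. All promoters of H1, H2A, H2B and H3 genes held it, against 25% of 12 H4 promoters. The octamer ATTTGCAT was found in 7 of 18 H2A and 7 of 16 H2B promoters, in none of H1, H3 or H4, and in 1.74% of all promoters. Windows of neighbouring H2A and H2B genes can overlap, as those of Hist1h2an and Hist1h2bp do, so the same site can count for both genes. Among the variants only the H3f3b promoter held the octamer, and only it held TATAAA, which was in 56.5% of the replication-dependent promoters and 13.6% of all. These matches describe letters in a window and are not measured binding sites.

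All 8 replacement variant genes had lower FPKM in the knockout library, while the summed level of the replication-dependent genes was nearly the same in both. Of all records that reached 1 FPKM in a library, 45.2% had lower FPKM in the knockout. Most of the replication-dependent sum came from 5 genes. Of all 73 records of that class 41 were lower and 13 higher, against 31.9% and 45.5% of all 23746 records. FPKM scales fragments by transcript length and by library size; how the library size was taken is not known here. Levels of different genes are set side by side below as deposited FPKM. For 12 of the 81 member records this value lay outside the lower and upper bound deposited with it in at least 1 library. The variants together had 3634 FPKM in the control and 1949.9 FPKM in the knockout library, 53.7% of the control sum. The replication-dependent genes together had 113 and 108 FPKM, 95.8% of the control sum, a difference that turned to slightly higher when both libraries were rescaled to the same total, by the midpoint of the deposited bounds, and over records longer than the coding length. Their level was 3.11% of the variant level in the control library and 5.55% in the knockout library. The sources used here do not say whether poly(A) RNA was selected. If it was, mRNAs without a tail would be under-represented, so these shares need not be those in the tissue.

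In place of a test, a gene is called lower or higher when log2((knockout FPKM + 1)/(control FPKM + 1)) is at most -1 or at least 1, a 2-fold rule. The rule was read against all 13279 records that reached 1 FPKM in at least 1 library, which are called expressed below. Of these, 8.67% were lower and 16.1% higher, and their median log2 ratio was 0.09. Among the variants 5 of 8 were lower, 0 were higher, and the median was -1.07. Among the replication-dependent genes 11 of 73 records were expressed, 3 of the 11 were lower, 0 were higher, and the median of the 11 was -0.06. Rescaling both libraries to the same total raised the median of all expressed records by 0.18, and left 3 of 8 variants lower and 3 of the 11 replication-dependent genes lower, with 1 higher.

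**Figure D1:**
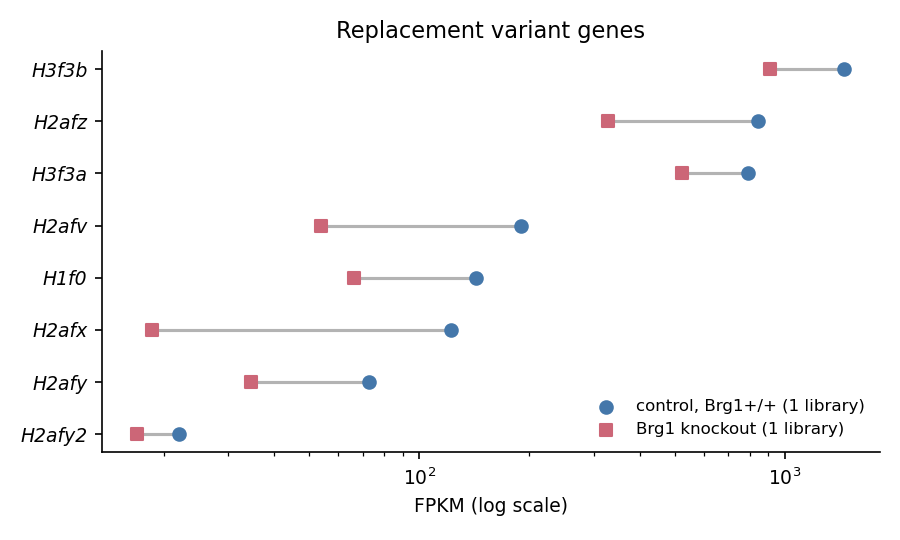
FPKM on a log axis for the 8 replacement variant genes, ordered by their control level; circles are the control library and squares the knockout library, 1 library each. Every square lies to the left of its circle, from H3f3b (1452 and 909 FPKM) down to H2afy2 (22.1 and 16.9 FPKM).

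The 2 genes of H3.3 were among the most abundant members and differed least among the 4 most abundant. H3f3b (chr11:116021961-116024504, 6 exons) had 1452 FPKM in the control and 909 FPKM in the knockout library, a log2 ratio of -0.68. H3f3a (chr1:180802568-180813603, 4 exons) had 792 and 523 FPKM, a log2 ratio of -0.60. Neither reached the 2-fold rule, and the pair's summed FPKM in the knockout was 63.8% of that in the control. H3f3b made up 64.7% of the pair's FPKM in the control and 63.5% in the knockout library. By FPKM, the balance of the 2 genes, which encode the same protein, was thus nearly the same in both. For both genes the FPKM lay outside its deposited bounds in both libraries. By the midpoint of the bounds H3f3b stood at 818 in the control and 509 in the knockout library, and H3f3a at 532 and 389. The log2 ratios by midpoint were -0.68 and -0.45.

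The 2 genes of H2A.Z were lower by more. H2afz (chr3:137864599-137866922, 5 exons) had 841 and 327 FPKM, a log2 ratio of -1.36. H2afv (chr11:6427226-6444443, 5 exons), which encodes the second H2A.Z protein, had 189 and 53.8 FPKM, a log2 ratio of -1.79. Summed, H2A.Z was at 37.0% of its control FPKM. Both genes passed the 2-fold rule, also after the rescaling to the same total. H2afz had 4.45 times the level of H2afv in the control library and 6.08 times in the knockout library. In the control library H3f3a stood at 0.941 times the level of H2afz, and in the knockout library at 1.60 times. These ratios are of FPKM and depend on the deposited value used. By the midpoint of the bounds, control then knockout, H2afz stood at 888 and 319, H2afv at 135 and 41.8, and H3f3a at 532 and 389.

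H2afx had the lowest log2 ratio of all members, although Hist1h4d was lower with a pseudocount of 0.1 FPKM, at -3.01 against -2.71. This gene (chr9:44334715-44336073, 1 exon), whose transcripts carry both the stem-loop and a poly(A) signal, had 122 and 18.6 FPKM, a log2 ratio of -2.65. Of all expressed records 0.572% had a ratio as low or lower. By FPKM, H2afz had 6.89 times the level of H2afx in the control library and 17.6 times in the knockout library. The control ratio depends on the deposited value used. By the midpoint of the bounds H2afz stood at 888 in the control and 319 in the knockout library, and H2afx at 88.3 and 18.1.

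The linker variant and the 2 macroH2A genes lay near the 2-fold rule. H1f0 (chr15:79028212-79030500, 1 exon) had 143 and 66.4 FPKM, a log2 ratio of -1.09. H2afy (chr13:56073622-56135550, 9 exons), which encodes macroH2A1, had 72.9 and 34.7 FPKM, a log2 ratio of -1.05. H2afy2 (chr10:61738647-61783864, 9 exons), which encodes macroH2A2, had 22.1 and 16.9 FPKM, a log2 ratio of -0.36. H1f0 and H2afy moved inside the rule after the rescaling to the same total, to -0.92 and -0.89. The level of H2afy was 3.30 times that of H2afy2 in the control library and 2.05 times in the knockout library.

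From high to low, the control order of the variants was H3f3b, H2afz, H3f3a, H2afv, H1f0, H2afx, H2afy and H2afy2. In the knockout library H3f3a stood above H2afz, H1f0 above H2afv, and H2afy above H2afx. The order has no replicate spread. The files give a lower and an upper bound for each FPKM, and the 2 libraries' bounds were apart, with the knockout below, for all 8 variants, against 36.1% of all expressed records. These bounds are not a replicate error, and for 6 of the 8 variants the control FPKM itself lay outside them. For H1f0 the bounds were 291 to 301 in the control and 128 to 135 in the knockout library, against FPKM values of 143 and 66.4. By the midpoint of the bounds the log2 ratio of each variant was also below 0, and H2afz stood above H3f3b in the control library. By that midpoint H1f0 stood above H2afv in both libraries, so these 2 genes did not change order.

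Of the 73 replication-dependent records, 41 had lower FPKM in the knockout, 13 had higher FPKM and 19 were at 0 in both libraries. In both libraries, 62 of the 73 were under 1 FPKM. The 5 most abundant, Hist3h2a, Hist3h2ba, Hist1h2bc, Hist2h2be and Hist1h1c, made up 77.7% of the class sum in the control and 89.3% in the knockout library.

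**Figure D2:**
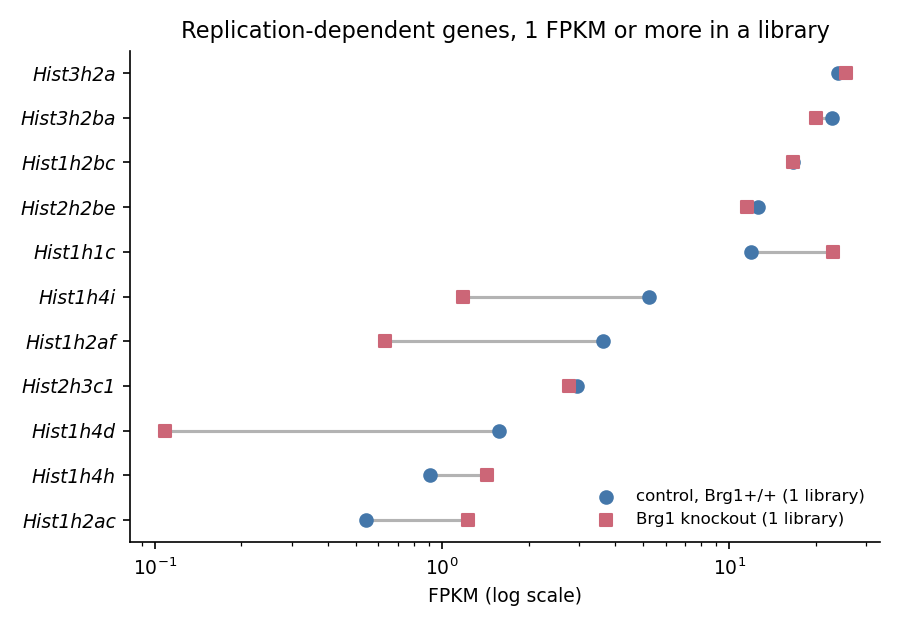
FPKM on a log axis for the 11 replication-dependent genes that reached 1 FPKM in a library, ordered by their control level; circles are the control library and squares the knockout library, 1 library each. The upper 4 pairs nearly coincide, Hist1h1c is higher in the knockout (11.9 and 23.0 FPKM), and Hist1h4i, Hist1h2af and Hist1h4d are lower.

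Hist1h1c (chr13:23738807-23740367), which encodes linker histone H1.2, had the highest log2 ratio of all members, although Hist1h2ac was higher with a pseudocount of 0.1 FPKM, at 1.05 against 0.95. Its level was 11.9 FPKM in the control and 23.0 FPKM in the knockout library, a log2 ratio of 0.90. It passed the 2-fold rule after the rescaling, at 1.11, and by the midpoint of the bounds, at 1.16. The linker variant H1f0 was lower, and had 12.1 times the level of Hist1h1c in the control library and 2.89 times in the knockout library. Both are single-exon genes whose annotated transcripts end with a poly(A) signal.

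The most abundant core histone genes of this class differed little. Hist3h2a (chr11:58954685-58956674, an H2A gene) had 23.9 and 25.4 FPKM, and Hist3h2ba (chr11:58948911-58949530, an H2B gene) had 22.8 and 20.0 FPKM. Hist1h2bc (chr13:23684199-23692480, H2B) had 16.7 FPKM in both libraries. Hist2h2be (chr3:96221121-96223738, H2B) had 12.5 and 11.5 FPKM. The log2 ratios of these 4 genes lay between -0.18 and 0.09; those of Hist3h2ba, Hist1h2bc and Hist2h2be took either sign across the alternatives of scaling and of bounds, so no direction is given for them. Hist2h3c1 (chr3:96246685-96248509, H3) had 2.94 and 2.78 FPKM, and its ratio took either sign as well. All of its 50-base transcript windows also occur in other annotated genes. Genes annotated over the same position would count here as well, so how far its reads are ambiguous is unknown.

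The 3 lower genes were of the Hist1 cluster on chromosome 13. Hist1h4i (chr13:22040816-22041352, H4) had 5.25 and 1.18 FPKM, a log2 ratio of -1.52. Hist1h2af (chr13:23533911-23534303, H2A) had 3.63 and 0.634 FPKM, a log2 ratio of -1.50, but 94.0% of its 50-base windows occur in other genes, 47 of them. Hist1h4d (chr13:23581602-23581913, H4) had 1.58 and 0.108 FPKM, a log2 ratio of -1.22. For Hist1h4i and Hist1h4d the shared windows were 28.9% and 10.2%. The bounds of the 2 libraries were apart, with the knockout below, for all 3. They were so for 3 of the 11 expressed replication-dependent genes, against 36.1% of all expressed records. With the knockout above, they were apart for Hist1h1c, Hist1h2ac and Hist1h2bc, against 41.6% of all expressed records, although the FPKM of Hist1h2bc was nearly equal.

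A pair of low genes had higher values in the knockout without reaching the rule. Hist1h4h (chr13:23531044-23531521) had 0.909 and 1.43 FPKM, and Hist1h2ac (chr13:23681467-23683959) had 0.542 and 1.23 FPKM. Hist1h4h and Hist1h4i, which encode the same H4 protein, differed in opposite directions. The log2 ratio was 0.35 for Hist1h4h and 0.53 for Hist1h2ac.

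**Figure D3:**
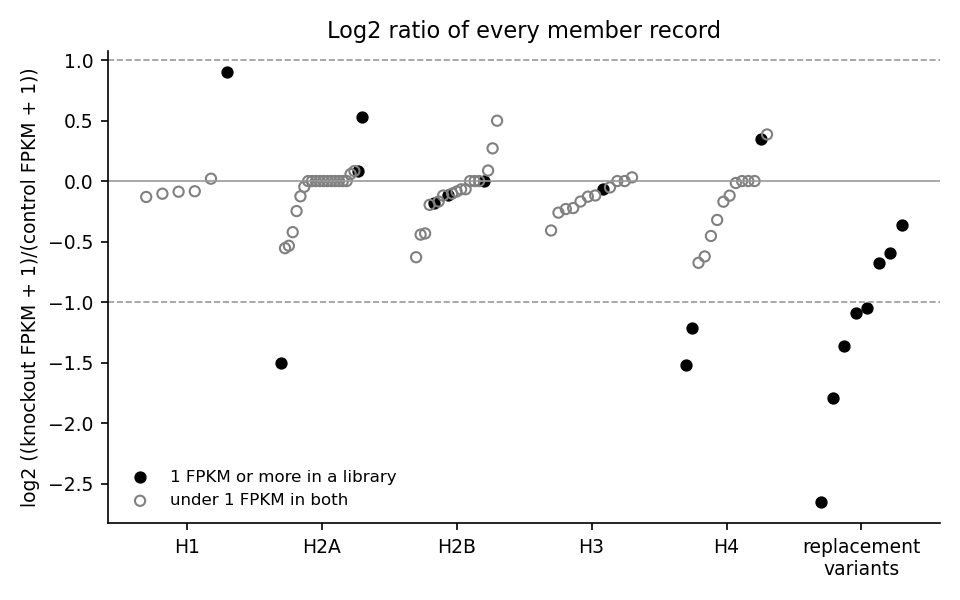
Log2 ratio of FPKM + 1, knockout over control, for each of the 81 member records by histone class; filled points reached 1 FPKM in a library, open points were under 1 FPKM in both, and dashed lines mark the 2-fold rule. The 8 variants all lie below 0, Hist1h2af and 2 H4 genes are the replication-dependent points below -1, and many open points sit at 0.

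By protein class the sums differed in both directions. H4 genes had the lowest ratio, with 9.89 FPKM in the control and 3.18 FPKM in the knockout library, 32.1% of the control sum. Most of the H4 control sum came from Hist1h4i (5.25 FPKM) and Hist1h4d (1.58 FPKM), both called lower. Of 14 H4 records 9 were lower and 2 higher in FPKM. H3 genes summed to 5.17 and 3.78 FPKM, or 73.1%. H1 genes summed to 12.9 and 23.7 FPKM, or 184%, nearly all of it Hist1h1c. H2A genes summed to 30.1 and 27.7 FPKM, or 92.2%, and H2B genes to 54.9 and 49.8 FPKM, or 90.8%; the direction of both flipped after the rescaling to the same total, that of H2B also by the midpoint of the bounds, and that of H2A also over records longer than the coding length. The H1 sum was higher and the H3 and H4 sums lower in the knockout under every alternative run.

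Records under 1 FPKM in both libraries were lower in the knockout in 35 of 62 cases, higher in 8, and at 0 in both in 19. Of the 10467 such records of the whole series, 15% were lower and 33.8% higher. Their sum was 10.3 FPKM in the control and 4.22 FPKM in the knockout library, 41.0% of it. The highest of them by control level were Hist1h2ag (0.827 and 0.244 FPKM), Hist2h3c2 (0.707 and 0.744 FPKM), Hist1h2bb (0.601 and 0.0349 FPKM), Hist1h4c (0.597 FPKM, and listed at 0 in the knockout) and Hist1h4b (0.540 FPKM, and listed at 0 in the knockout). At these levels the log2(FPKM + 1) scale compresses a difference, and the fragment counts behind the values are unknown. In FPKM, 41 of all 73 replication-dependent records were lower in the knockout and 13 higher, against 31.9% lower and 45.5% higher of all 23746 records.

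Most records that were not at 0 in both libraries were lower whatever the extent of the annotated record, and the sums differed with it. For 35 replication-dependent records the deposited span equals the GENCODE coding length within 3 bases, so the record covers the open reading frame and no more. These summed to 9.79 FPKM in the control and 1.79 FPKM in the knockout library, 18.3%, with 20 records lower, 3 higher and 12 at 0 in both. Without Hist1h2af and Hist1h4d, the only expressed genes among them, the share was 22.9%. Of the 38 longer records 21 were lower, 10 higher and 7 at 0 in both. They summed to 103 and 106 FPKM, or 103%, but to 15.4 and 9.79 FPKM, or 63.7%, without the 5 most abundant genes. The H4 sum stayed lower over its longer records alone.

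**Figure D4:**
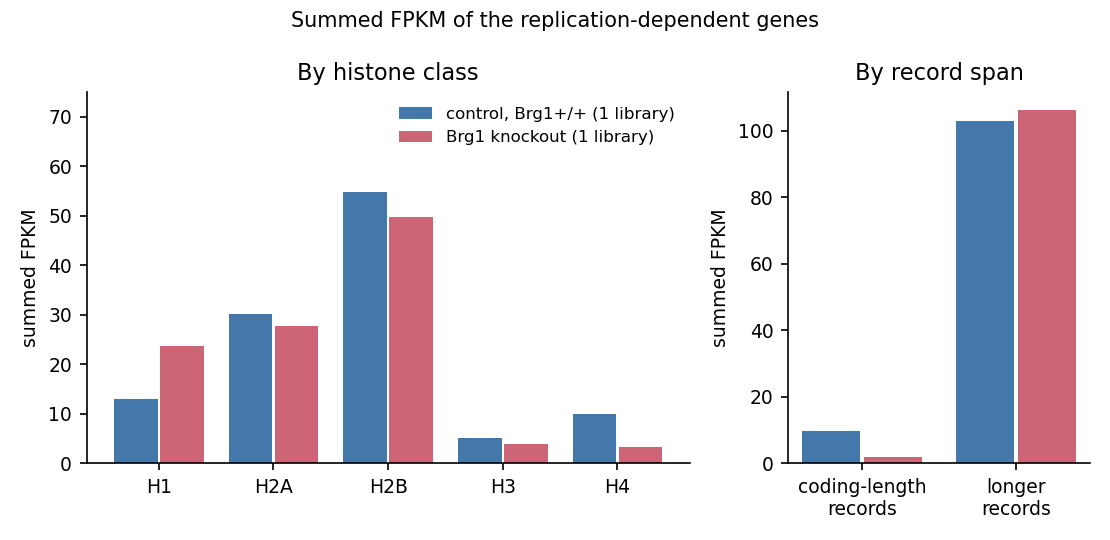
Summed FPKM of the replication-dependent genes from 0, by histone class (left) and by whether the deposited record spans only the coding length (right); bars are single libraries, control beside knockout, with no error bars because each genotype has 1 library. H4 (9.89 and 3.18 FPKM) and the coding-length records (9.79 and 1.79 FPKM) are lower in the knockout, and H1 (12.9 and 23.7 FPKM) is higher.

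Sums also differed by annotated transcript end. The 17 records of genes with an annotated poly(A) signal summed to 81.4 FPKM in the control and 86.1 FPKM in the knockout library, 106%, and held 7 of the 11 expressed genes. Of these 17 records 9 were lower, 6 higher and 2 at 0 in both. The other 56 records summed to 31.5 and 22.0 FPKM, 69.9%, with 32 lower, 7 higher and 17 at 0 in both. Without the 5 most abundant genes both sums were lower in the knockout, 10.3 and 6.24 FPKM (60.5%) with the signal and 14.8 and 5.34 FPKM (36.0%) without it. The sources used here do not say whether poly(A) RNA was selected, and mRNAs without a tail would be under-represented if it was. The part of RNA selection and of annotation in these differences was not tested.

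Many H2A and H2B genes lie head to head and share a promoter region. Of 11 such pairs, at most 1000 bases apart, 3 held an expressed gene, and in each of these the 2 partners had unequal levels. Hist2h2be had 12.5 and 11.5 FPKM while its partner Hist2h2ac, 276 bases away, was listed at 0 in both libraries. Hist3h2a had 23.9 and 25.4 FPKM, and the record Hist3h2bb-ps, 172 bases away, had 0.0518 and 0.269 FPKM. Hist3h2bb-ps is annotated as a processed pseudogene, so this pair does not compare 2 working histone genes. Hist1h2bc had 16.7 FPKM in both, and Hist1h2ac, 239 bases away, 0.542 and 1.23 FPKM.

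Sequence shared with other annotated genes, on either strand, was counted to show where single genes may be hard to read. Genes overlapping at the same position were counted as well, so a shared window need not come from a copy. Over 50-base windows of their transcripts, the median share found in another annotated gene was 49.7% for the 67 replication-dependent genes, and 33 of them had at least 50%. For the variants the median was 8.26% and the highest was H2afz at 35.4%, followed by H3f3a at 27.1%. No shared window was found for 4 replication-dependent genes, Hist2h2be among them, and for 1 variant, H2afv.

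The machinery that makes and places histones was read from 4 lists, beside a list of S phase genes. Of 16 expressed genes for transcription and 3′ processing of histone mRNA, 2 were lower, 0 were higher, and the median log2 ratio was -0.20. Slbp, the protein that binds the stem-loop, had 43.2 and 15.3 FPKM, a log2 ratio of -1.44. Eri1, an exonuclease that trims the histone mRNA end, had 15.7 and 6.84 FPKM, a log2 ratio of -1.09, and was inside the rule after the rescaling to the same total.

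Chaperones of replication-coupled assembly were lower more often. Of 17 expressed genes 8 were lower, 0 were higher, and the median was -0.97. Chaf1b, a subunit of chromatin assembly factor 1, had 16.0 and 4.05 FPKM. Asf1b, which hands on H3 and H4, had 20.5 and 5.57 FPKM. Mcm2, a helicase subunit that also binds histones, had 26.1 and 7.41 FPKM, and Mms22l, a partner of the histone reader Tonsl, had 10.6 and 2.67 FPKM. All 4 had log2 ratios between -1.75 and -1.67.

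Chaperones and exchangers of replacement histones were lower in 4 of 19 expressed genes, with 0 higher and a median of -0.23. Among the lower genes were Hjurp (21.3 and 3.25 FPKM) and Oip5 (17.5 and 5.14 FPKM), which load the centromeric histone CENP-A, and Ruvbl2 (30.0 and 12.8 FPKM), an ATPase of the H2A.Z exchange complexes. The genes named for H3.3 deposition were inside the rule. Hira had 13.6 and 13.0 FPKM, Daxx 3.15 and 3.83 FPKM, and Atrx 10.7 and 15.7 FPKM. Among 3 other expressed variant histone genes, Cenpa (78.9 and 18.1 FPKM) and the linker H1fx (47.8 and 8.21 FPKM) were lower, at -2.06 and -2.40, and H2afj had 5.87 and 5.85 FPKM.

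In the S phase list 19 of 20 expressed genes were lower, 0 were higher, and the median was -1.61. Mcm6, a helicase subunit, stood at 62.0 and 9.56 FPKM, Gins1 of the same machine 32.1 and 6.53 FPKM, Cdc6, which loads the helicase, 9.52 and 1.41 FPKM, and Tyms, thymidylate synthase, 17.0 and 3.46 FPKM. The 20 genes summed to 988 FPKM in the control and 328 FPKM in the knockout library. The variant median of -1.07 lay between the S phase median and that of all expressed records. Mcm2 stands in both this list and that of the replication-coupled chaperones.

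**Figure D5:**
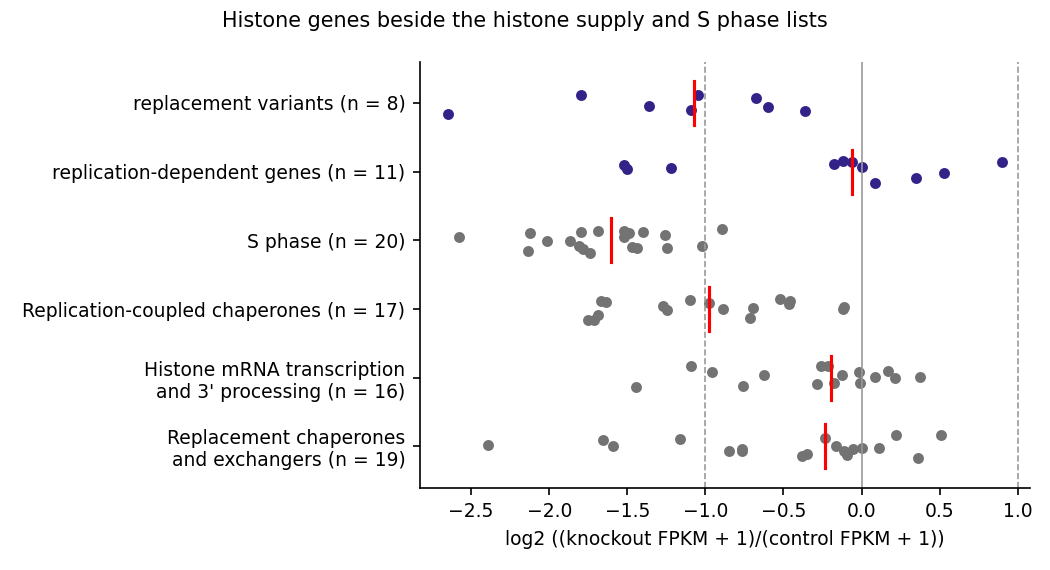
Log2 ratio of FPKM + 1, knockout over control, for the expressed genes of the 2 histone classes (dark points) and of 4 accompanying lists (grey points), without the 3 other variant histone genes (median -2.06); red bars are medians and dashed lines mark the 2-fold rule. Of the sets drawn, the S phase genes have the lowest median (-1.61) and the variants the next (-1.07), and the replication-dependent genes spread on both sides of 0 (-0.06).

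The 2 libraries differed in much besides histone genes. Smarca4 (chr9:21616169-21704230), the gene floxed in the knockout, stood at 14.0 FPKM in the control and 3.76 FPKM in the knockout library, and the proliferation marker Mki67 had 40.8 and 10.2 FPKM. Markers of granule neuron precursors and Hedgehog tumours summed to 728 and 361 FPKM, with 4 of 8 lower. Markers of other cell types were higher in the knockout: 6 of 7 for granule neurons (128 and 524 FPKM), 6 of 6 for Purkinje cells (9.99 and 675 FPKM), 5 of 5 for interneurons (61.0 and 538 FPKM), 7 of 7 for astrocytes and Bergmann glia (442 and 2441 FPKM) and 6 of 6 for oligodendrocytes (48.0 and 588 FPKM). The same held for 5 of 6 microglial genes (28.2 and 79.1 FPKM), 2 of 4 endothelial genes (23.8 and 87.3 FPKM) and 4 of 4 expressed erythroid records (6.78 and 31.6 FPKM), and no marker was at 0 in either library. Xist had 268 and 0.369 FPKM and the Y-linked Ddx3y 0.00687 and 25.1 FPKM, so genotype and the animals' sex cannot be told apart. The part of these differences in the histone values was not tested, and in bulk tissue fewer cells of a type and less RNA per cell cannot be told apart.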

How the data were processed

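RNA sequencing of 2 tumours was used, 1 library per genotype. Per the file headers, the deposited values are gene FPKM with a lower and an upper bound. Per the submitters' processing notes, Cuffdiff 2.1.1 and the build mm10 were used; the aligner and annotation are not named there. No counts are given, so the depth is unknown; the FPKM summed to 388032 in the control and 343028 in the knockout library.

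Groups came from the genotype labels. Ratios were taken as log2(FPKM + 1), and a minimum of 1 FPKM in 1 library and a 2-fold rule replaced a test. Positions are from the files, counted from 1. Gene structure and transcripts were from GENCODE M21 (GRCm38), matched for all 75 genes, and promoters from RefSeq on GRCm38.p6, matched for 68. Exon counts are those of a gene's longest annotated coding transcript. Protein identity was not analysed here. Every expressed member is named, with the 5 highest of the others by control level and up to 4 genes of each list by size of ratio, of which 1 is not reported here; Hira, Daxx, Atrx, H2afj, Xist and Ddx3y were named after their values were seen. The members and lists were chosen with earlier results of these data known. Alternatives were other pseudocounts, fold rules, filters, scalings and the midpoint of the bounds. Python 3.11.15, pandas 2.3.3, numpy 2.4.6 and matplotlib 3.10.9 were used.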

Additional observations from a re-analysis of the deposited data

How the results depend on the processing

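No paired analysis was possible because each genotype has 1 library, and for the same reason no library could be left out. Of 223 recomputed class and list values, 208 counted as unchanged. For a count this means within 1.5 times of the reported one, and for a log2 ratio within log2(1.5) of it. A log2 ratio near 0 could thus change sign and still count as unchanged. That of the replication-dependent sum went from -0.06 to 0.12 after the rescaling to the same total. After both libraries were rescaled to the same total, 3 variants, 3 replication-dependent genes and 1 gene of histone mRNA transcription and processing were lower, and 1 replication-dependent gene, Hist1h1c, was higher. Hist1h1c was also the 1 higher gene with a 1.5-fold rule and by the midpoint of the bounds, and Hist1h2ac was the 1 higher gene with a pseudocount of 0.1 FPKM. With the 1.5-fold rule, 5 processing genes and 7 replacement chaperones were lower. With a 4-fold rule, 0 replication-dependent genes, 1 variant, 0 processing genes, 0 replication-coupled chaperones, 1 replacement chaperone and 4 S phase genes were lower. With no filter on low values the median of the other variant histones was -0.0048, since 4 more genes near 0 entered. An alternative chosen after seeing the data, sums over records longer than the coding length, kept the direction of the H1, H3 and H4 sums. Of 296 values of single genes 3 left the 2-fold rule (H1f0, H2afy and Eri1, after the rescaling), 3 entered it, and 0 changed sign among those called. With the ratios unchanged, 18 called genes missed the 4-fold rule and 3 more passed the 1.5-fold rule. Depth is unknown, so the precision of values under 1 FPKM is unknown too.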

Other observations

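The deposited FPKM lay outside its own deposited bounds for 12 of the 81 member records in at least 1 library, all of them expressed, with 4 below the lower and 7 above the upper bound in each library. For Hist1h1c the value was 11.9 FPKM against bounds of 17.7 to 20.7 in the control library, and 23.0 FPKM against 42.1 to 46.0 in the knockout library. For H3f3b it was 1452 FPKM against bounds of 809 to 827 in the control library. Over all records of the series, 6689 in the control and 7089 in the knockout library lay outside.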
